A study of Homo sapiens with 12 samples.

Results

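The 34 genes described here encode proteins of tight junctions, desmosomes and gap junctions, together with the catenins and nectins of the neighbouring adherens junctions. They were taken from a named list and not by a cut on measured values. The list was chosen with earlier results of these data known. Each of the 34 symbols matched 1 identifier among the 62702 genes used from the count table. All 34 passed the filter on low counts, which left 17677 genes for testing. The cells were MCF10AT, a RAS-transformed derivative of the human breast epithelial line MCF10A. One set of cells expressed the long and the intermediate human prolactin receptor (hPRLrL/hPRLrI, below "intact"), and the other the same pair with the I-tail of the intermediate receptor deleted ("deleted"). All cells were starved of serum for 24 h and were then left untreated or given prolactin (PRL) at 250 ng/ml for 2 h, so starvation is shared by every group. There were 12 polyA libraries, 3 in each of the 4 groups of intact untreated, intact PRL, deleted untreated and deleted PRL cells. The labels speak of 3 biological replicates and do not say whether either set of cells came from 1 clone or a pool.

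Epithelial cells are held together by several kinds of junction. In tight junctions, claudins and occludin-type proteins seal the space between cells and are anchored to the cytoskeleton by zonula occludens scaffolds. In desmosomes, the desmogleins and desmocollins of neighbouring cells bind each other and are linked through plakoglobin, plakophilins and desmoplakin to keratin filaments. Gap junctions are channels built of connexins, through which ions and small molecules pass between cells. In the mammary gland, tight junctions close around the onset of milk secretion, and prolactin is among the hormones of that period. The prolactin receptor acts in large part through the kinase JAK2 and the transcription factor STAT5.

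Levels are given as CPM, counts relative to a library's total after TMM scaling. Each library held 36120808 to 57324865 counts. PRLR, the receptor gene, lay between 3099 and 3959 CPM in all 12 libraries, and a gene count cannot show whether the I-tail was present. All 9 epithelial markers examined were detected, with summed levels of 1843 to 10550 CPM. The highest were KRT17 at 406 to 4670, KRT5 at 310 to 3331 and KRT8 at 864 to 2324 CPM. KRT19 and EPCAM were low, at 0.42 to 1.3 and 1.16 to 5.33 CPM. Of 9 fibroblast markers, COL1A1 stood at 97.1 to 238 CPM and DCN at 212 to 472 CPM, while PDGFRA and LUM did not exceed 0.244 and 0.185 CPM. Of 7 endothelial markers, CDH5, KDR and CLDN5 stayed at or below 0.156 CPM, while 4 passed the count filter, with PECAM1 at 0.804 to 2.76, ESAM at 0.318 to 1.09 and VWF at up to 1.08 CPM. Of 8 leukocyte markers, PTPRC and CD3E did not exceed 0.0227 CPM, while CSF1R and LCP1 lay at 20.6 to 47.7 and 23.8 to 39.5 CPM. The parts of these markers in the results below were not tested. The 4 libraries titled 1 to 4, which are library 1 of each group, stood apart from the other 8: their TMM factors were 1.103 to 1.164 against 0.7905 to 1.049, and 24477 to 25200 genes had a count against 19073 to 23895. They are therefore set beside the other libraries below, and for the junction genes with the smallest p-values the fold change is also given without them.

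Of the tight junction membrane proteins, LSR was the most abundant and OCLN the least. To compare genes, CPM were divided by the summed exon length in kilobases (CPM per kb, mean ± SD over 12 libraries). LSR, the lipolysis-stimulated receptor of tricellular contacts, reached 41.8 ± 12.6 CPM per kb, rank 6 of the 34 genes. CLDN4, a claudin common in simple epithelia, followed at 7.78 ± 1.76 and F11R, which encodes the adhesion molecule JAM-A, at 6.81 ± 1.38 CPM per kb. These 2 were less clearly ordered, with CLDN4 above F11R in 9 of 12 libraries. CLDN7, CLDN1, CLDN23, EPCAM and MARVELD2 lay between 2.67 and 0.871 CPM per kb, and the order of CLDN1 over CLDN23 and of CLDN23 over EPCAM held in 8 of 12 libraries each. Divided by the longest transcript in place of all exons, EPCAM lay above CLDN23, at 1.77 against 1.45 CPM per kb. CLDN12 and MARVELD3 stood at 0.417 and 0.344 CPM per kb, with CLDN12 higher in 7 of 12. CLDN12 (59 to 183 counts) shares 347 exonic bases with GTPBP10 (35 to 174 counts) and 201 with CDK14 (395 to 824 counts) on the same strand, so its level is uncertain. OCLN, which encodes occludin, had 2 to 14 counts per library, or 0.0241 ± 0.0165 CPM per kb. Its libraries read 0.209, 0.0827 and 0.139 CPM in intact untreated cells, 0.0432, 0.418 and 0.0975 in intact PRL, 0.115, 0.148 and 0.227 in deleted untreated and 0.0889, 0.314 and 0.0730 in deleted PRL cells. These few counts leave OCLN as the least precisely measured of the 34 genes.

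The plaque of the tight junction was represented by TJP1, TJP3 and CGN. TJP1, which encodes the scaffold ZO-1, stood at 4.52 ± 0.524 CPM per kb. Its level was 52.4, 49.5 and 40.8 CPM in intact untreated cells, 57.4, 50.9 and 45.5 in intact PRL, 56.5, 47.0 and 50.5 in deleted untreated and 62.5, 51.6 and 46.1 in deleted PRL cells. The 4 groups of TJP1 overlapped and spanned a narrow range. TJP3, encoding ZO-3, stood at 3.64 ± 0.868 CPM per kb and was below TJP1 in 9 of 12 libraries. CGN, encoding the cytoskeletal linker cingulin, was far lower at 0.268 ± 0.0894 CPM per kb. CGN read 0.974, 1.77 and 1.74 CPM in intact untreated, 1.32, 2.51 and 1.39 in intact PRL, 1.20, 2.49 and 1.91 in deleted untreated and 1.25, 1.86 and 2.85 in deleted PRL cells.

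Among the catenins, partner proteins of the cadherins, CTNNA1 (alpha-catenin) was the highest at 54.1 ± 3.91 CPM per kb, followed in every library by CTNNB1 (beta-catenin) at 12.2 ± 1.97. Divided by the longest transcript in place of all exons, CTNNA1 came to 125 CPM per kb. CTNNA1 was also the steadiest of the 34 genes, with a within-group SD of 0.10 on the log2 scale. Its libraries read 465, 449.9 and 449.8 CPM in intact untreated cells, 502, 482 and 417 in intact PRL, 491, 532 and 490.4 in deleted untreated and 530.1, 481 and 445 in deleted PRL cells. CTNND1 (p120-catenin) stood at 0.810 ± 0.126 CPM per kb, with 179 to 443 counts. Its levels were 7.12, 7.09 and 5.62 CPM in intact untreated, 7.17, 5.35 and 6.92 in intact PRL, 7.62, 9.36 and 7.17 in deleted untreated and 7.34, 8.54 and 6.23 in deleted PRL cells. CTNND1 shares 289 exonic bases with a same-strand gene (ENSG00000254732, 0 to 6 counts), and since the handling of reads in shared exons is not stated, its low level is uncertain. The same holds for F11R, which shares 1853 exonic bases with a same-strand gene (ENSG00000270149, 0 to 18 counts).

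The most abundant transcript of the list encodes a plaque protein of the desmosome. JUP, encoding plakoglobin, ranked first at 159 ± 54.3 CPM per kb and lay above PKP3 (plakophilin-3, 52.1 ± 17.0) in every library. JUP read 451, 921 and 897 CPM in intact untreated cells, 446, 1112 and 1136 in intact PRL, 489, 713 and 912 in deleted untreated and 468, 786 and 1093 in deleted PRL cells. In each group the first library was the lowest. PKP2, the plakophilin of heart and simple epithelia, stood at 1.14 ± 0.141 CPM per kb and varied little, with a within-group SD of 0.20 (log2). Its libraries read 6.72, 8.99 and 7.57 CPM in intact untreated, 6.67, 10.1 and 7.68 in intact PRL, 8.26, 7.54 and 8.38 in deleted untreated and 7.49, 9.03 and 7.72 in deleted PRL cells. PKP1, the plakophilin of stratified epithelia, had 3 to 47 counts and 0.0754 ± 0.0469 CPM per kb. PKP1 read 0.394, 0.386 and 0.469 CPM in intact untreated, 0.324, 0.239 and 0.317 in intact PRL, 0.0692, 0.993 and 0.953 in deleted untreated and 0.467, 0.229 and 0.779 in deleted PRL cells, and its deleted libraries spanned both the lowest and the highest of these values.

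Plakins link the plaque to filaments or to the cornified envelope of stratified epithelia. PPL (periplakin) ranked second of the 34 genes at 79.9 ± 10.99 CPM per kb of exons. By the longest transcript it came to 98.4 CPM per kb, below CTNNA1 at 125. The levels of PPL were 533, 624 and 568 CPM in intact untreated cells, 617, 578 and 581 in intact PRL, 684, 749.9 and 561 in deleted untreated and 644, 754 and 470.4 in deleted PRL cells. PERP, a small membrane protein that p53 and p63 induce, stood at 27.2 ± 5.41 and DSP (desmoplakin) at 23.6 ± 5.83 CPM per kb, PERP being the higher in 9 of 12 libraries. EVPL (envoplakin) was lowest of this group at 13.1 ± 3.08. EVPL read 64.2, 119 and 104 CPM in intact untreated, 71.0, 136 and 121 in intact PRL, 75.4, 95.3 and 103 in deleted untreated and 69.9, 109.2 and 109.3 in deleted PRL cells, again with the first library lowest in each group.

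The desmosomal cadherins were less abundant per kb than JUP, PKP3 and the plakins. DSG2, the desmoglein of nearly all desmosomes, led at 7.56 ± 1.38 CPM per kb, above DSC3 (4.22 ± 0.960) and DSG3 (2.65 ± 0.979) in every library. Its levels were 56.3, 37.0 and 41.6 CPM in intact untreated, 52.8, 35.1 and 41.5 in intact PRL, 55.7, 42.4 and 54.9 in deleted untreated and 60.0, 43.1 and 40.8 in deleted PRL cells. DSG2 was highest in the first library of every group. DSC2, the widely expressed desmocollin, was the lowest cadherin at 1.43 ± 0.475 CPM per kb and lay below DSG3 in 9 of 12 libraries.

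The connexins GJB2 (connexin 26) and GJA1 (connexin 43) were both rare, at 1.98 ± 0.818 and 1.20 ± 0.920 CPM per kb. GJB2 read 2.16, 8.27 and 4.76 CPM in intact untreated cells, 3.48, 5.89 and 5.63 in intact PRL, 1.94, 6.08 and 5.56 in deleted untreated and 2.93, 8.11 and 5.72 in deleted PRL cells. GJA1 read 9.64, 2.15 and 2.52 CPM in intact untreated, 7.86, 1.11 and 2.05 in intact PRL, 8.06, 1.44 and 2.75 in deleted untreated and 7.40, 2.06 and 1.97 in deleted PRL cells. The first library of each group was thus the lowest for GJB2 and the highest for GJA1, so that GJB2 exceeded GJA1 per kb in the 8 libraries titled 5 to 12 and not in the other 4. GJA1 had the largest within-group SD of the 34 genes, 1.23 (log2), and 0.45 without the libraries titled 1 to 4.

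Nectins are immunoglobulin-type adhesion molecules that cooperate with cadherins. NECTIN2 stood at 54.1 ± 14.9 CPM per kb, NECTIN1 at 14.6 ± 5.92 and NECTIN4, a target of antibody therapy in carcinoma, at 4.05 ± 1.13, in this order in every library. By the longest transcript NECTIN2 came to 82.3 CPM per kb. NECTIN4 read 13.01, 8.55 and 20.4 CPM in intact untreated, 14.4, 7.47 and 20.4 in intact PRL, 13.4, 12.6 and 15.4 in deleted untreated and 16.9, 12.7 and 15.1 in deleted PRL cells. The second library was the lowest of its group for NECTIN4 in all 4 groups.

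**Figure D1:**
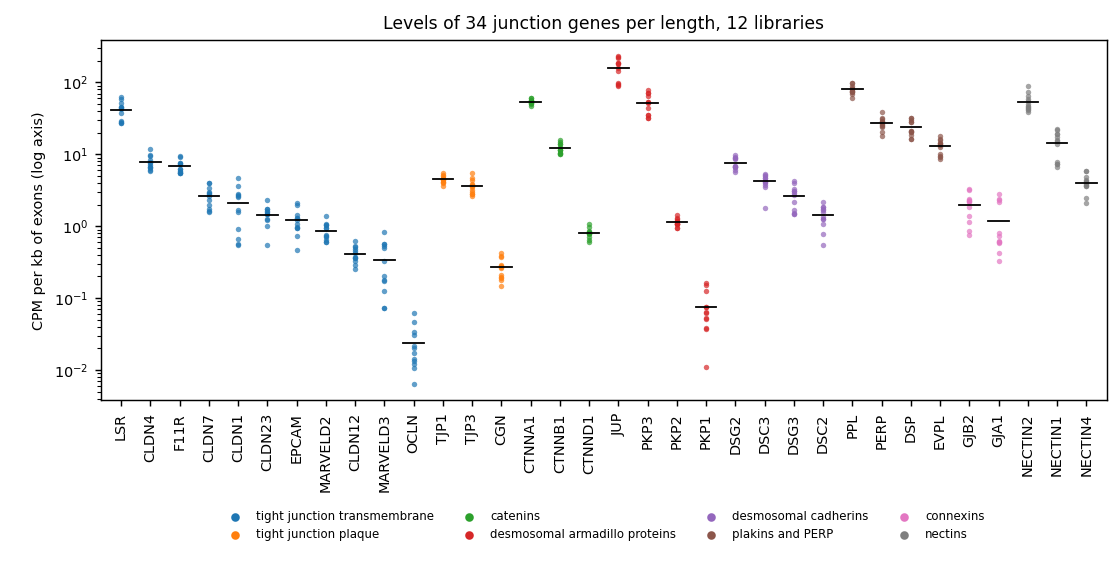
Level of each of the 34 junction genes in CPM per kb of exons (log axis), ordered within role; each point is 1 of 12 libraries, the bar is their mean and colours mark roles. JUP is highest at 159 and OCLN lowest at 0.0241 CPM per kb.

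The first comparison asked whether PRL changed these genes 2 h after it was added. With the PRL effect averaged over both receptor pairs, 0 of the 34 genes were called (edgeR's quasi-likelihood F test, Benjamini-Hochberg adjusted p under 0.05 over all genes tested), against 0.119% of all 17677 genes. DESeq2 and limma-voom also called 0 of the 34 in this and each of the other 6 contrasts, as did edgeR without the libraries titled 1 to 4. None had an unadjusted p under 0.05, a level that 3.81% of all genes passed. Log2 fold changes of the 34 ran from -0.47 (PKP1) to 0.30 (PKP3) with a median of -0.02, as over all genes (-0.02), and 16 of 34 lay above 0 (47.1%, against 46.1% of all genes). The 95% intervals of 29 of the 34 lay within 1 log2 unit on either side of 0. Their median half-width was 0.50, from 0.24 for CTNNA1 to 1.40 for OCLN. No gene had all 6 PRL libraries above or below all 6 untreated ones, which 0.441% and 0.238% of all genes did.

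The 3 smallest p-values for PRL belonged to NECTIN2, CLDN12 and PERP. NECTIN2 (ENSG00000130202, GRCh38 chromosome 19, 44846175 to 44889228) read 146, 274 and 189 CPM in intact untreated cells and 166, 331 and 244 with PRL, and 156, 173 and 170.4 CPM in deleted untreated cells and 158, 204 and 222 with PRL. PRL and untreated libraries overlapped in both receptor pairs. The averaged log2 fold change was 0.25 ± 0.19 (SE, 95% interval -0.15 to 0.66; adjusted p = 0.98, edgeR), and 0.31 without the libraries titled 1 to 4. CLDN12, a claudin that lacks the scaffold-binding tail of most others, read 4.24, 1.93 and 2.43 CPM in intact untreated and 2.55, 2.21 and 2.44 in intact PRL cells, and 3.55, 3.02 and 3.495 in deleted untreated and 3.29, 1.69 and 2.90 in deleted PRL cells. The groups overlapped, with the first intact untreated library the highest. Its averaged log2 fold change was -0.30 ± 0.23 (-0.80 to 0.19; adjusted p = 0.98, edgeR), and -0.20 without the libraries titled 1 to 4. PERP read 119, 88.9 and 138 CPM in intact untreated and 102, 76.8 and 122 in intact PRL cells, and 115, 123 and 166 in deleted untreated and 109, 108 and 133 in deleted PRL cells. The groups of PERP overlapped in both receptor pairs, and its averaged log2 fold change was -0.21 ± 0.16 (-0.55 to 0.14; adjusted p = 0.98, edgeR), or -0.22 without the libraries titled 1 to 4.

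By role, the averaged PRL values were small throughout. The 4 desmosomal cadherins lay at -0.21 to -0.07 and the 3 catenins at -0.08 to -0.01 on the log2 scale. The 3 nectins lay at 0.06 to 0.25, and the tight junction membrane proteins had 5 of 11 above 0. None of these values passed the test. With the intact I-tail 0 of 34 were called against 0.017% of all genes, with log2 fold changes of -0.50 to 0.32. With the deleted I-tail 0 of 34 were called, again against 0.017%, with values of -0.61 to 0.43. No gene of the 34 had an unadjusted p under 0.05 in either, against 2.55% and 1.79% of all genes, and the smallest were 0.311 and 0.262 (edgeR). These 2 PRL comparisons rest on different libraries.

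**Figure D2:**
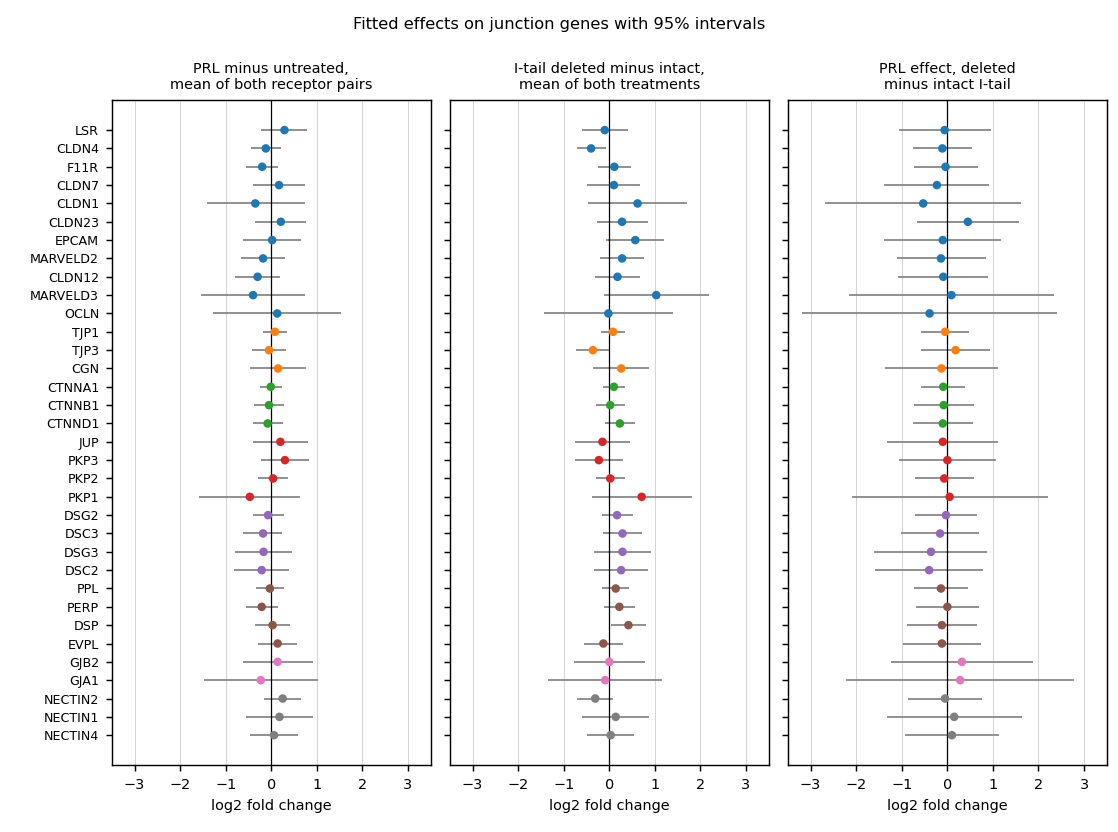
Fitted log2 fold change of each junction gene (points, coloured by role) with its 95% interval (lines) for PRL averaged over both receptor pairs, for deletion of the I-tail averaged over both treatments, and for the interaction. Of the 34 intervals, 0, 2 and 0 exclude 0, those 2 being CLDN4 and DSP for the deletion, and none of the adjusted p-values passes 0.05.

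The receptor uses STAT5, so the promoters of the 34 genes were searched for the palindrome TTCNNNGAA that STAT factors bind, in the 250 bases before each RefSeq start on either strand (build GRCh38.p14). For 24 of the 34 genes the RefSeq table held 35 such windows. The motif was present in 3 of the 35 windows (8.57%), those of CLDN12, CTNNA1 and DSC2, against 6.57% of 35116 windows over the genome. These 3 windows are shown with the motif in capitals, ending 86, 77 and 54 bases before the start. The DSC2 and CTNNA1 windows belong to 1 of 2 and 1 of 4 annotated starts.
CLDN12, chr7:90403211-90403460, plus strand: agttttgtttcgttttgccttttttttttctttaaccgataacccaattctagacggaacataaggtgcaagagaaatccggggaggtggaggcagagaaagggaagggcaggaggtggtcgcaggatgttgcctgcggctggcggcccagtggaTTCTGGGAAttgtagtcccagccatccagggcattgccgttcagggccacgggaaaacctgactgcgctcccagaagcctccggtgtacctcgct
CTNNA1, chr5:138875150-138875399, plus strand: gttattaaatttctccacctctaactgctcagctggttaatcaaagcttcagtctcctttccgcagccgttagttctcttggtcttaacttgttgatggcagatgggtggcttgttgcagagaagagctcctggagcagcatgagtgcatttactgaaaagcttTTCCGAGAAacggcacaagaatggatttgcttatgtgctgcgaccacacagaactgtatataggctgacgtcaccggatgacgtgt
DSC2, chr18:31101261-31101510, minus strand: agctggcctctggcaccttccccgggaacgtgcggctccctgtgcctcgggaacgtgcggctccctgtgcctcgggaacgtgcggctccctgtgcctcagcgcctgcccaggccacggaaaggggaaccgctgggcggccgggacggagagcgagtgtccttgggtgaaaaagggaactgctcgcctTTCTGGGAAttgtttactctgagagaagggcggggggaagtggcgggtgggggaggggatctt
The averaged PRL values of these 3 genes were -0.30, -0.01 and -0.21 on the log2 scale, and none passed the test. A match describes letters and is not evidence of a bound site. The E-box CACCTG, which SNAIL and ZEB proteins bind, was found in 10 of the 35 windows (28.6%), in 9 genes, against 17.5% of all windows. The Grainyhead-like motif AACCNGTT was found in 1 window, that of CGN, against 1.49% of all.

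The second comparison asked what removal of the I-tail changed. Averaged over both treatments, 0 of the 34 genes were called (edgeR, adjusted p under 0.05), against 0.00566% of all genes. Unadjusted p-values under 0.05 were reached by 2 of the 34, CLDN4 and DSP, against 2.28% of all genes. Of the 34 values 25 lay above 0 (73.5%, against 55.9% of all genes), with a median of 0.12 against 0.03. They ran from -0.40 (CLDN4) to 1.03 (MARVELD3). The 95% intervals of 28 of the 34 lay within 1 log2 unit of 0. No gene had all 6 deleted libraries above or below all 6 intact ones, which 0.13% and 0.0566% of all genes did. The same libraries enter all 34 values, which are therefore not independent.

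CLDN4 (ENSG00000189143, chromosome 7, 73799542 to 73832693) had the smallest unadjusted p for the deletion. It read 36.9, 45.5 and 45.2 CPM in intact untreated and 28.2, 55.0 and 39.0 in intact PRL cells, and 33.3, 31.3 and 35.8 in deleted untreated and 31.0, 30.5 and 27.4 in deleted PRL cells. The group means were 42.5 ± 4.89 and 33.5 ± 2.24 CPM in untreated cells and 40.7 ± 13.4 and 29.7 ± 1.95 with PRL (SD, n = 3), intact first. All untreated intact libraries exceeded all untreated deleted ones, and with PRL 1 intact library lay among the deleted ones. The averaged log2 fold change was -0.40 ± 0.15 (SE, 95% interval -0.72 to -0.08; unadjusted p = 0.0188, adjusted p = 0.991, edgeR), and -0.56 without the libraries titled 1 to 4 (adjusted p = 0.213, edgeR).

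DSP (ENSG00000096696, chromosome 6, 7541575 to 7586717) had the next smallest. It read 165, 214.0 and 214.1 CPM in intact untreated and 188, 163 and 280.1 in intact PRL cells, and 204, 305 and 318 in deleted untreated and 208, 320 and 284 in deleted PRL cells. The groups overlapped in each treatment, where the first deleted library fell within the intact range. The averaged log2 fold change was 0.42 ± 0.18 (0.04 to 0.80; unadjusted p = 0.0323, adjusted p = 0.991, edgeR), and 0.50 without the libraries titled 1 to 4 (adjusted p = 0.233, edgeR). TJP3 read 15.6, 23.3 and 15.4 CPM in intact untreated and 11.1, 18.4 and 19.7 in intact PRL cells, and 16.1, 11.8 and 11.8 in deleted untreated and 13.3, 15.0 and 12.6 in deleted PRL cells. Its averaged log2 fold change was -0.36 ± 0.18 (-0.74 to 0.02; adjusted p = 0.991, edgeR), and -0.58 without the libraries titled 1 to 4.

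MARVELD3, a relative of occludin, had the largest value, 1.03 ± 0.53 (SE), with an interval of -0.11 to 2.18 and an adjusted p of 0.991 (edgeR). Its libraries read 0.464, 1.30 and 3.25 CPM in intact untreated, 0.475, 1.14 and 2.10 in intact PRL, 1.11, 3.63 and 5.29 in deleted untreated and 0.822, 3.63 and 3.41 in deleted PRL cells. The groups overlapped, and the spread within groups, 1.18 (log2), exceeded the difference. MARVELD3 shares 1068 exonic bases with PHLPP2 on the opposite strand, and without a stated strand setting the reads of the 2 genes there cannot be told apart. CLDN1, a claudin of basal and stratified epithelia, had the same within-group spread. It read 2.06, 6.21 and 10.1 CPM in intact untreated, 2.01, 5.80 and 9.65 in intact PRL, 3.39, 13.3 and 17.3 in deleted untreated and 2.45, 10.4 and 9.47 in deleted PRL cells, with an averaged log2 fold change of 0.62 ± 0.50 (-0.46 to 1.70). Without the libraries titled 1 to 4 the log2 fold changes were 1.04 for MARVELD3 and 0.63 for CLDN1. The within-group SD, then from 2 libraries per group, fell to 0.58 and 0.39. In both genes the libraries left out lay below all others, so the lower SD restates that split.

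By role, all 4 desmosomal cadherins (0.17 to 0.29) and all 3 catenins (0.02 to 0.23) lay above 0 for the averaged deletion, as did 8 of 11 tight junction membrane proteins (-0.40 to 1.03) and 3 of 4 of the plakins and PERP (-0.13 to 0.42). The other roles were mixed. Of the desmosomal armadillo proteins 2 of 4 lay above 0 (-0.23 to 0.71, JUP and PKP3 being at -0.15 and -0.23). The nectins had 2 of 3 above 0 (-0.31 to 0.14), as did the tight junction plaque (-0.36 to 0.26). The connexins lay at -0.09 (GJA1) and 0.00 (GJB2). None of these passed the test. In untreated cells 0 of 34 were called against 0.00566% of all genes, and in PRL-treated cells 0 of 34 were called against 0.00566%. Unadjusted p-values under 0.05 were reached by 0 of the 34 in each, against 0.837% and 1.62% of all genes, and the smallest were 0.0759 (DSP) and 0.0506 (CLDN4) (edgeR). When scaled by library size alone, the median of all genes shifted from 0.03 to 0.11 and that of the 34 from 0.12 to 0.21.

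The third comparison asked whether the PRL effect differed between the receptor pairs. For this interaction 0 of the 34 genes were called (edgeR, adjusted p under 0.05), as were 0.0% of all genes, and none had an unadjusted p under 0.05, against 0.718% of all genes. The values ran from -0.53 (CLDN1) to 0.45 (CLDN23), and 9 of 34 lay above 0 (26.5%, against 47.3%). With a median half-width of 1.0, 14 of the 34 intervals lay within 1 log2 unit of 0, and the others allowed a larger difference between the pairs.

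The smallest p-values of the interaction belonged to CLDN23, DSC2 and DSG3. CLDN23, an intronless claudin gene, read 3.18, 2.65 and 2.74 CPM in intact untreated and 3.76, 1.20 and 3.46 in intact PRL cells, and 3.19, 3.53 and 2.18 in deleted untreated and 5.09, 3.17 and 3.73 in deleted PRL cells. The interaction was 0.45 ± 0.52 (SE, 95% interval -0.67 to 1.58; adjusted p = 1.0, edgeR), and the second intact PRL library was the lowest of all 12. DSC2 read 22.8, 9.87 and 16.0 CPM in intact untreated and 21.8, 6.75 and 19.7 in intact PRL cells, and 27.5, 17.0 and 22.8 in deleted untreated and 21.2, 13.4 and 15.8 in deleted PRL cells. The second library was the lowest in each group, and the interaction was -0.40 ± 0.55 (-1.59 to 0.79; adjusted p = 1.0, edgeR). DSG3, a desmoglein of basal keratinocytes, read 8.16, 15.1 and 16.0 CPM in intact untreated and 9.39, 8.25 and 22.0 in intact PRL cells, and 12.2, 18.4 and 23.7 in deleted untreated and 8.34, 17.0 and 17.3 in deleted PRL cells. Its interaction of -0.36 ± 0.58 (-1.61 to 0.88; adjusted p = 1.0, edgeR) took the opposite sign, 0.21, without intact PRL library 3. Leaving out 1 library moved CLDN23 to between 0.11 (without intact PRL library 2) and 0.72, and DSC2 to between -0.76 and -0.12 (without intact PRL library 1). Without the libraries titled 1 to 4 the values of CLDN23, DSC2 and DSG3 were 0.51, -0.44 and -0.22.

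**Figure D3:**
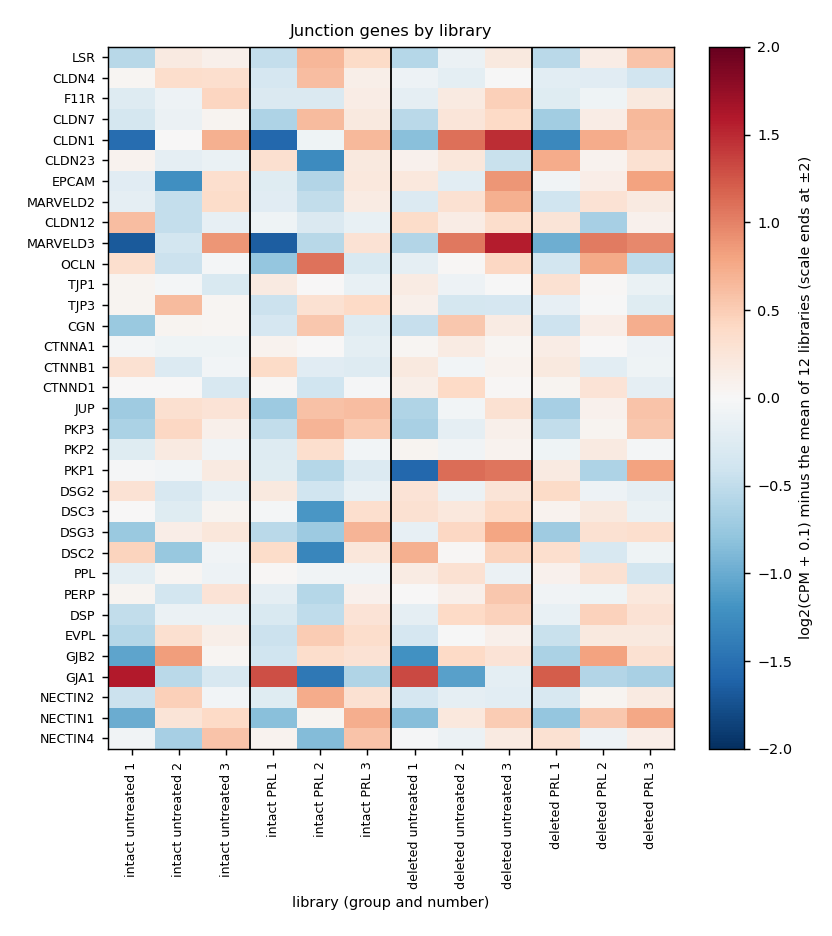
Each junction gene (rows, by role) in each library (columns, 3 per group), coloured by log2(CPM + 0.1) minus the gene's mean over 12 libraries, on a scale that ends at ±2. The first library of each group differs from the others in many rows, as for JUP (446 to 489 CPM against 713 to 1136) and GJA1 (7.40 to 9.64 against 1.11 to 2.75).

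The libraries titled 1 to 4 hold 1 library of each group, so this split crosses PRL and the deletion evenly. It was noticed in the data, and its values are given as a description with no test. In 11 of the 34 genes (32.4%) all 4 of these libraries lay below the other 8, against 13.6% of all genes tested, and in 3 (8.82%) all 4 lay above, against 12.8%. The 11 were CLDN1, CLDN7, MARVELD3 and LSR of the tight junction membrane, CGN of its plaque, JUP, PKP3 and EVPL of the desmosome, GJB2 of the gap junction, and NECTIN1 and NECTIN2. The 3 were TJP1, CTNNB1 and GJA1. With counts scaled by library size alone the numbers were 7 below and 6 above, against 5.21% and 21.8% of all genes. CLDN1, LSR, JUP, PKP3, EVPL, GJB2 and NECTIN1 were below, and CTNNB1 and GJA1 above, with each of 4 scalings.

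JUP averaged 463 CPM in the libraries titled 1 to 4 and 946 in the others, a ratio of 2.04. NECTIN1 (ENSG00000110400, chromosome 11, 119623408 to 119729084) lay at 51.4, 57.1, 56.4 and 60.0 CPM in these 4, in the order of the groups given above, and at 106 to 175 in the others, 2.49 times as high on average. PKP3 lay at 120.0 to 134 against 166 to 301 CPM. LSR read 79.8, 133 and 125 CPM in intact untreated, 83.7, 185 and 152 in intact PRL, 78.8, 108 and 134 in deleted untreated and 80.8, 129.6 and 174 in deleted PRL cells, with the first library lowest each time. CLDN1 was 4.15 times as high in the other 8 libraries, and GJA1 (ENSG00000152661, chromosome 6, 121435577 to 121449727) 4.11 times as high in the 4. CTNNB1 lay at 164 to 188 against 119 to 151 CPM. With TMM scaling none of the 4 desmosomal cadherins separated the libraries, and neither did PKP1, PKP2, DSP, PPL or PERP. DSG2 averaged 56.2 CPM in the 4 and 42.1 in the others, and DSG3 9.51 and 17.2, with overlap in both. Scaled by library size alone, DSG2 lay above the others in all 4. Over the 34 genes the median within-group SD was 0.45 (log2), and 0.29 without the libraries titled 1 to 4, where all genes had 0.41 and 0.31.

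Most epithelial markers were lower in the same libraries. Their summed level was 1843 to 2251 CPM in the libraries titled 1 to 4 and 5810 to 10550 in the others. Of the 9, 6 (CDH1, KRT5, KRT14, KRT17, KRT8 and KRT18) were below in all 4, against 13.6% of all genes tested. EPCAM, KRT19 and TP63 overlapped. The fibroblast sum was 425 to 528 against 429 to 620.2 CPM, and the leukocyte sum 61.8 to 69.9 against 52.2 to 82.4, so both overlapped. The endothelial sum, 2.93 to 4.15 against 1.93 to 2.60 CPM, did not. PECAM1 alone of the tested endothelial markers separated the libraries, at 1.59 to 2.76 against 0.804 to 1.57 CPM. The part of these markers in the junction values was not tested. In bulk RNA, fewer cells of a kind and less RNA per cell cannot be told apart.

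**Figure D4:**
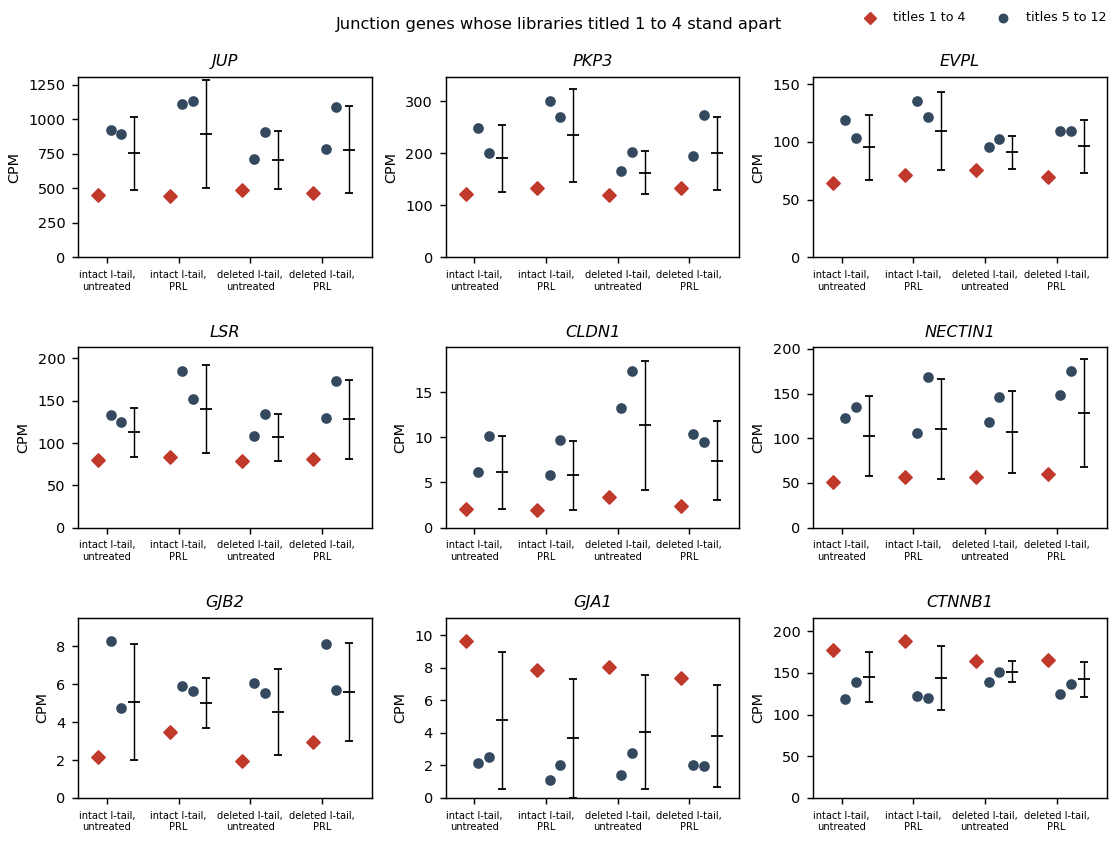
CPM of 9 junction genes in each library by group, with diamonds for the libraries titled 1 to 4, circles for those titled 5 to 12 and bars for the mean ± SD of each group (n = 3). The diamonds lie below every circle in the first 7 panels and above every circle for GJA1 (7.40 to 9.64 against 1.11 to 2.75) and CTNNB1 (164 to 188 against 119 to 151).

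The promoters of the 2 connexins that moved apart between these libraries differ in base composition, with 48.0% G and C for GJA1 and 70.0% for GJB2 (RefSeq, GRCh38.p14). The AP-1 motif TGANTCA, in capitals, ends 41 bases before the GJA1 start and is absent from the GJB2 window. None of the 4 motifs searched is present in the GJB2 window. AP-1 motifs were found in 3 of the 35 windows (8.57%), those of CLDN4, GJA1 and PERP, against 6.57% of all.
GJA1, chr6:121435396-121435645, plus strand: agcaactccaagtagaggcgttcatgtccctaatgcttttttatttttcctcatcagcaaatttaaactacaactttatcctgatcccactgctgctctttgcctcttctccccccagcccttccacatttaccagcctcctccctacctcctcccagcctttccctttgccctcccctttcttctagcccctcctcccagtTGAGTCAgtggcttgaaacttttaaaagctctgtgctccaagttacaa
GJB2, chr13:20192939-20193188, minus strand: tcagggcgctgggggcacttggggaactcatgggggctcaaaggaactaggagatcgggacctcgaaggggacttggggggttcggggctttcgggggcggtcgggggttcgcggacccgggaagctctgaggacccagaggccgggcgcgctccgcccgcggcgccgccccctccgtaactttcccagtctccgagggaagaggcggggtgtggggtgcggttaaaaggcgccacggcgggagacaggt
Motif matches overlapped each other in none of the windows of the 34 genes.

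Other genes of the same junctions were read from lists of textbook members, also chosen with earlier results of these data known. None was called in any of the 7 contrasts with all 12 libraries and the count filter (edgeR with no block, adjusted p under 0.05). Of 27 other claudins and tight junction membrane proteins 11 passed the count filter, of 23 scaffolds and polarity proteins 21, of 16 adherens junction proteins 14, of 13 desmosome and envelope proteins 5, of 21 connexins and pannexins 9, and of 23 regulators all 23. For PRL, the tight junction adhesion molecules with the smallest p-values were CXADR (-0.38 ± 0.22) and JAM3 (0.70 ± 0.46), and among scaffolds AMOT (-0.36 ± 0.28) and SYMPK (0.20 ± 0.18; log2 fold change ± SE). The actin adaptor ZYX had 0.52 ± 0.28 and PKP4 -0.16 ± 0.13. Of the connexins, GJD3 had 0.60 ± 0.27 (unadjusted p = 0.0415, edgeR). The envelope protein IVL had 0.25 ± 0.47 and the basal keratin KRT14 0.40 ± 0.46. Adjusted p-values of these 9 genes were all 0.98 (edgeR).

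For the deletion, CDH1 (E-cadherin) had 0.89 ± 0.45, with group means of 23.3 ± 12.7 and 46.2 ± 27.9 CPM in untreated cells and 22.7 ± 15.1 and 39.5 ± 22.5 with PRL (SD, n = 3), intact first. CDH1 lay at 9.89 to 15.0 CPM in the libraries titled 1 to 4 and at 18.9 to 68.7 in the others. LIMA1 had 0.33 ± 0.16, AMOTL1, a YAP-binding angiomotin, 0.31 ± 0.11 (unadjusted p = 0.0157, edgeR), PARD6A -0.70 ± 0.35, CLDN9 -0.63 ± 0.35 and the polarity protein CRB3 0.60 ± 0.49. PANX2 had -0.43 ± 0.19, KRT14 0.53 ± 0.46 and IVL -0.52 ± 0.47. Adjusted p-values of these 9 genes were all 0.991 (edgeR). With limma-voom the values of CDH1, CRB3 and KRT14 were 0.43, 0.03 and 0.08, and leaving out 1 library moved CRB3 to between 0.30 and 1.07. CDH1 had 0.97 without the libraries titled 1 to 4, and without a count filter it was called (adjusted p = 0.000407, edgeR). Without that filter 33 of all genes were called for the averaged deletion, against 1 with it.

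Among regulators of junction genes, TWIST1, a repressor of E-cadherin, came nearest to a call for PRL. It averaged 26.7 ± 2.12 CPM in intact untreated and 17.7 ± 2.73 in intact PRL cells, and 25.6 ± 2.31 in deleted untreated and 19.8 ± 1.35 in deleted PRL cells (SD, n = 3). The averaged log2 fold change was -0.48 ± 0.12 (unadjusted p = 0.00124, adjusted p = 0.317, edgeR). With DESeq2 the adjusted p was 0.00863 and with limma-voom 0.0147, and without the libraries titled 1 to 4 the value was -0.54 (adjusted p = 0.266, edgeR). ELF3, an epithelial ETS factor, had -1.0 ± 0.35 (adjusted p = 0.949, edgeR) at 0.367 to 2.63 CPM. For the deletion, GRHL2, a Grainyhead-like activator of CDH1 and claudin genes, had 1.16 ± 0.44 (unadjusted p = 0.0208, adjusted p = 0.991, edgeR). Its means were 3.10 ± 2.12 and 6.69 ± 4.19 CPM in untreated cells and 2.40 ± 1.33 and 5.61 ± 3.20 with PRL, intact first. TP63, the master factor of basal epithelium, had 0.74 ± 0.43 (adjusted p = 0.991, edgeR). Without the libraries titled 1 to 4 the values of GRHL2 and TP63 were 1.40 and 0.86, and with limma-voom 0.67 and 0.28. GRHL2 was called without a count filter (adjusted p = 0.0023, edgeR), as 1 of 33 genes called there for the averaged deletion.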

How the data were processed

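RNA of 12 MCF10AT libraries, 3 per group by genotype and treatment label, was measured; libraries are numbered within a group in title order. The deposited table holds raw counts, whole numbers with no scaling, for each Ensembl gene in each library. Per the submitters' processing notes, FastQC, STAR 2.7.9a and featureCounts of Subread were used with build GRCh38; the annotation release, the strand setting and the handling of shared exons are not stated in the labels or headers used here. The 1 of 62703 entries without values was left out. Depth was 36120808 to 57324865 counts, and replicate libraries differed by more than sampling noise (chi-square per degree of freedom 51.17 to 212.3).

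In R 4.3.3, genes passing filterByExpr (17677) were TMM-scaled. A single model of edgeR 4.0.16 with 4 group means and no covariate took all 12 libraries, leaving 8 residual degrees of freedom at a common biological coefficient of variation of 0.303. The quasi-likelihood F test was run for 7 contrasts, with Benjamini-Hochberg adjustment over all tested genes and calls at 0.05. SEs were derived from the fold change and its F statistic, and intervals are 95%. Coordinates and gene lengths (exon unions) are those of GENCODE 29 on GRCh38. Within-group SDs use log2 CPM with a prior count of 2. Promoter windows and motifs were read from RefSeq sequences. Counts were also simulated with changes of known size, placed only on genes averaging at least 1 CPM. Each library was drawn independently, so variation shared between libraries was not simulated. OCLN and PKP1, averaging 0.163 and 0.468 CPM, lie below that level and are not covered. For the averaged PRL effect 10.45% of 1.5-fold, 76.12% of 2-fold and 98.48% of 4-fold changes were recovered. For the averaged deletion the shares were 17.91%, 74.63% and 96.97%, and for the interaction 0%, 1.493% and 42.42%. False calls numbered 5, 9 and 2 in these comparisons. The lack of calls therefore says little about 1.5-fold changes or about 2-fold interactions. Most 4-fold interactions were missed as well.

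The 34 genes, the other lists and the tests were chosen with earlier results of these data known. Given in full were members called, the 3 smallest p-values for the averaged PRL effect, the averaged deletion effect and the interaction, the highest and lowest level per length of each role, and the 3 largest and 3 smallest within-group spreads; of the other lists, the 2 smallest p-values for PRL and for the deletion, of which some are not reported here. MARVELD3 as the largest value, NECTIN1, PKP3 and CTNNB1 in the comparison of libraries titled 1 to 4, and the range ends were picked once values were known. The settings varied were the scaling (RLE, upper quartile or library size alone), the count filter (none, or 1 CPM and 10 counts in at least 3 libraries), the tool (DESeq2 1.42.0, or voom of limma 3.58.1 with quality weights), non-robust dispersions, a replicate block, the compared groups only, the longest transcript for length, and leaving out each library. Leaving out the 4 libraries of 1 run of titles was added after seeing the data.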

Additional observations from a re-analysis of the deposited data

How the results depend on the processing

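In all 7 contrasts 0 of the 34 junction genes were called under each of up to 25 alternatives. Of the 34, 32 were tested with the stricter count filter and 33 with the compared groups only. The lowest adjusted p of a member was 0.0999, for the averaged deletion with the replicate block. Titles 1 to 4, 5 to 8 and 9 to 12 each hold 1 library of every group. Deviations from group means correlated at 0.0966 to 0.603 in the 18 pairs of libraries of 1 run, 16 of them over 0.1. In 36 other pairs they correlated at -0.447 to 0.301, 3 of them over 0.1. As not all 18 passed 0.1, the main model has no replicate block. Variation shared by the libraries of a run therefore stays in its SEs and intervals. The replicate block called 0 of the 34, and over all genes it called 198 for the averaged PRL effect, 62 and 57 for PRL with the intact and the deleted I-tail and 11 for the averaged deletion. DESeq2 called 86, 21, 21 and 10 and limma-voom 116, 25, 21 and 8 in these contrasts, against 21, 3, 3 and 1.

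Of 33 named log2 fold changes, 25 kept their direction and stayed without a call in every alternative. The DSG3 interaction ranged from -0.60 to 0.21 when 1 library was left out and was 0.13 without the libraries titled 9 to 12. IVL for PRL became -0.20 with limma-voom and -0.06 without the libraries titled 1 to 4. With the replicate block, calls were gained by TWIST1 for PRL (-0.49, adjusted p = 0.00932), CDH1 for the deletion (0.84, 0.0152) and KRT14 for PRL (0.38, 0.0239) and the deletion (0.50, 0.0271; all edgeR). Without a count filter they were gained for the deletion by CDH1 (adjusted p = 0.000407) and GRHL2 (0.0023), both edgeR. That setting called 33 of all genes for the averaged deletion, against 1. The causes were not tested. With library-size scaling, 7 junction genes lay below and 6 above in the libraries titled 1 to 4, and this scaling moved the median of all genes from -0.02 to -0.12 for PRL. Per kb of the longest transcript, CTNNA1 was at 124.8 and JUP at 224.5 CPM per kb, against 54.13 and 158.9. OCLN (2 to 14 counts) and PKP1 (3 to 47) are limited by depth.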
